A study of Homo sapiens with 6 samples.

Results

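The genes of cholesterol synthesis, of its control by sterols, of intracellular sterol transport and of fatty acid synthesis were examined in A549 cells, an established human lung adenocarcinoma line, after knockdown of the RNA helicase DDX17. The members were a fixed list of 32 symbols, and all 32 were found among the 29476 genes of the deposited count table. The list was called cholesterol synthesis and uptake genes, but it held no lipoprotein receptor, and 7 of its members make or desaturate fatty acids. All 32 members passed the filter on low counts, which kept 15615 genes for testing. Polyadenylated RNA was sequenced from 3 libraries of cells transfected with a nontargeting control siRNA (siCtrl) and 3 libraries of cells transfected with 1 siRNA against DDX17 (siDDX17). Both groups were the same line, carried no other change given in the labels, and were transfected with the same lipid reagent. The titles name the control as siCtrl, whereas another field of the labels calls it a control plasmid. Since 1 siRNA was used, loss of DDX17 and other effects of that siRNA cannot be told apart.

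Cells control their cholesterol through the SREBP transcription factors, which SREBF1 and SREBF2 encode. SREBPs are made as precursors in the endoplasmic reticulum membrane, where SCAP binds them. When sterols are low, SCAP escorts the precursor to the Golgi, where it is cut, and the freed factor enters the nucleus and turns on the genes of cholesterol and fatty acid synthesis. When sterols are abundant, INSIG1 and INSIG2 hold SCAP in the endoplasmic reticulum. Most members are known SREBP targets, INSIG1 included, whereas ABCA1, which exports cholesterol from the cell, is a known target of the sterol-sensing LXR receptors. RNA levels do not measure the processing of SREBP proteins or sterol content, neither of which was analysed here.

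The stretches upstream of 3 members are shown because these genes are textbook SREBP targets and moved in opposite directions or did not pass the test. INSIG1 was higher in siDDX17, HMGCS1 was lower, and SREBF2 was the only member of those searched whose promoter held the sterol regulatory element used here. The sequences are from RefSeq on GRCh38.p14, were cut so that they end at or before the annotated start of the gene, and are written 5′ to 3′ on the strand of the gene. The capitals mark the 3 motifs searched on both strands, which were the sterol regulatory element TCACNCCAC, the CCAAT box CCAAT and the GC box GGGCGG. Adjacent GC boxes may overlap. The stretches were chr22:41832955-41833104 on the plus strand for SREBF2, chr7:155297628-155297775 on the plus strand for INSIG1 and chr5:43313513-43313662 on the minus strand for HMGCS1.
SREBF2: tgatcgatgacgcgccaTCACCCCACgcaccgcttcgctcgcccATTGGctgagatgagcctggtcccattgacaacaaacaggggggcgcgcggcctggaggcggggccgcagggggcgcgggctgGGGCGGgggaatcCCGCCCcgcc
INSIG1: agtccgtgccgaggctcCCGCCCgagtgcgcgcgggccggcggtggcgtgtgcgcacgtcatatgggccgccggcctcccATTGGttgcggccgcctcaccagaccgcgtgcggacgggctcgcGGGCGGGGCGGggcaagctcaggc
HMGCS1: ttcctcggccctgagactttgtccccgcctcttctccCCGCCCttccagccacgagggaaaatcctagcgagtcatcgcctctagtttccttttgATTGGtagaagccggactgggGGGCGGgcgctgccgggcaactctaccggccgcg

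Promoter windows from 250 bases before to 50 bases after a start were held for 28 of the 32 members, and ACAT2, FDFT1, SQLE and FASN were not among them. The sterol regulatory element in the exact letters above was found in 1 of the 28 members (3.57%), SREBF2, and in 1.39% of 27305 genes. A CCAAT box was present in 20 of the 28 members (71.4%) and in 39.7% of all genes, or 42.9% of the tested genes with a window. GC boxes were present in 27 of the 28 members (96.4%), in 48.3% of all genes and in 76.4% of the tested genes with a window. A gene with several starts counted as holding a motif when any of its windows did. These shares describe letters in the windows and say nothing of binding.

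DDX17 itself was checked in every library. In CPM, the count of a gene scaled to the size of its library with TMM factors, it stood at 177, 184 and 206 in siCtrl 1, 2 and 3 and at 32.1, 30.8 and 30.4 in siDDX17 1, 2 and 3. The groups did not overlap, and the log2 fold change of siDDX17 over siCtrl was -2.60 (SE 0.0685, n = 3 per group, adjusted p = 5.89e-11). Throughout, adjusted p is from the quasi-likelihood test of edgeR adjusted by Benjamini-Hochberg across all 15615 tested genes, and a member was called higher or lower when it was under 0.05, with no limit on the fold change. The libraries held between 30658136 and 39182371 counted reads, and the members had between 164 and 54668 reads in a library. Library siCtrl 1 stood apart from the other controls, with a chi-square per gene of 20.3 and 25.6 against siCtrl 2 and 3, compared with 5.83 between siCtrl 2 and 3 and 3.62 to 5.49 between siDDX17 libraries. The counts of called members, in all and by role, are therefore given with and without it, whereas the counts by fold limits and by overlap are given for all 6 libraries. The 6 epithelial markers, which check the cell type, moved with the knockdown, and their part in the results below was not tested. Their summed level was 8135 to 8930 CPM in siCtrl and 6579 to 7101 CPM in siDDX17, and 4 of the 6 were lower. These were the keratins KRT7 (log2 fold change -0.64), KRT19 (-0.32), KRT8 (-0.28) and KRT18 (-0.18). EPCAM, at 0.738 to 1.084 CPM in siCtrl and 2.21 to 2.28 CPM in siDDX17, was higher (1.35), and CDH1 did not pass. The alveolar type 2 markers were near 0 in both groups, with a summed level of 1.40 to 1.86 CPM in siCtrl and 2.002 to 2.47 CPM in siDDX17 over 5 listed markers, of which 1 of 3 tested (NAPSA) was called higher. The summed levels were at most 0.110 CPM for 3 blood cell markers, at most 0.413 CPM for 4 endothelial markers and at most 3.90 CPM for 4 fibroblast markers.

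Of the 32 members, 3 were higher and 13 were lower in siDDX17, and 16 did not pass the test. In such bulk libraries, less RNA per cell and fewer cells of a kind in the culture cannot be told apart. The 3 higher members (9.38%) stood against 24.5% of all tested genes called higher, and the 13 lower members (40.6%) against 24.3% called lower. Without siCtrl 1, 7 members were higher and 15 were lower, against 26.4% and 27.0% of all tested genes. When the libraries were scaled by their totals alone, 9 members (28.1%) were higher and 9 (28.1%) were lower. Of all tested genes, 33.5% were then higher and 16.0% lower. The counts of called members thus depended on the scaling, as did the shares of all tested genes. The changes were small. The median log2 fold change of the 32 members was -0.10, beside 0.01 over all tested genes. With scaling by totals alone it was 0.02, beside 0.13 over all tested genes. The median absolute log2 fold change was 0.189 for the members and 0.294 for all tested genes.

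Past a fold change of 2, 0 members were higher and 1, HMGCS1, was lower. Over all tested genes, 4.65% were higher and 2.92% were lower by that limit. With the limits stated in the methods of the study (p under 0.01 and a fold change of 1.5), 2 members, INSIG1 and PMVK, were higher and 3, HMGCS1, ABCA1 and SCD, were lower. All tested genes passed those limits in 11% of cases upward and 8.03% downward. The 3 libraries of each group did not overlap for 5 members upward and 13 downward, beside 28.8% and 27.7% of all tested genes. In the other 14 members the groups overlapped.

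**Figure D1:**
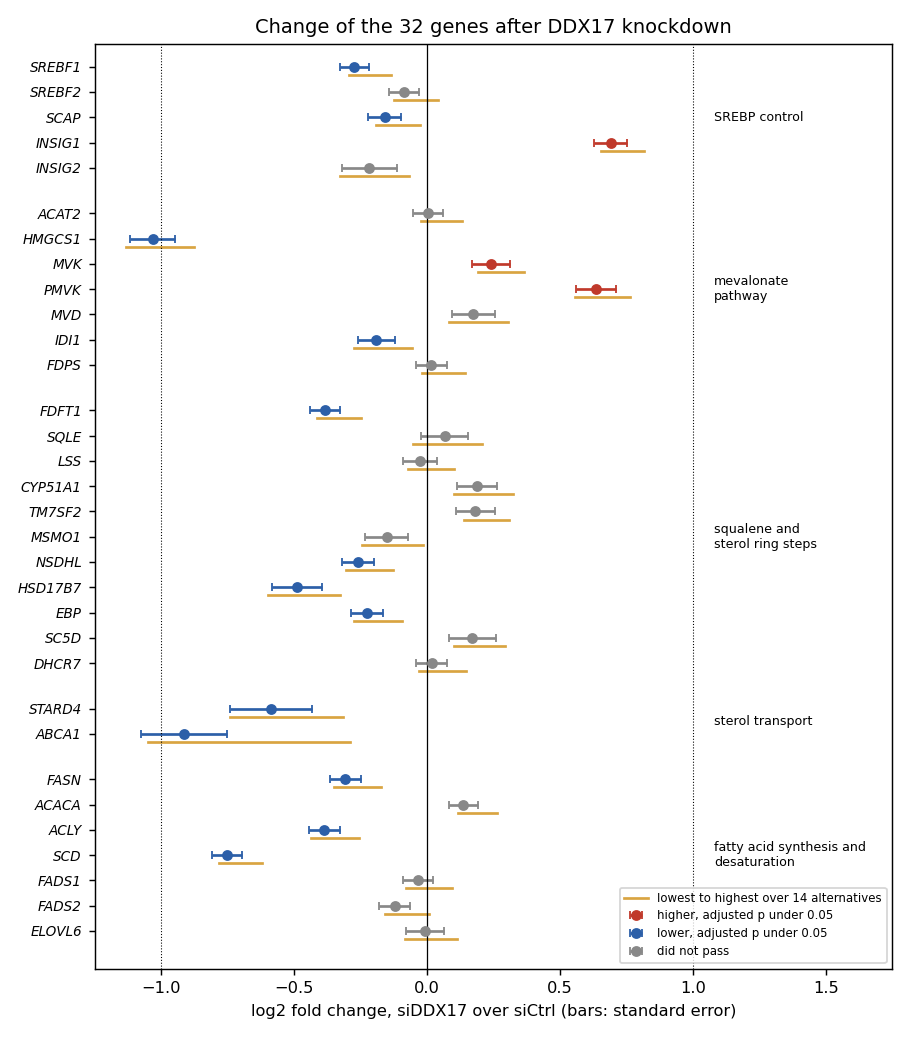
Log2 fold change of siDDX17 over siCtrl for the 32 genes, ordered by role, with points as estimates, bars as standard errors (n = 3 per group) and the line under each point as the lowest to highest value over 14 alternative analyses. INSIG1 (0.69) and PMVK (0.64) lie farthest to the right and HMGCS1 (-1.03), ABCA1 (-0.91) and SCD (-0.75) farthest to the left, while the lines of 9 genes reach the other side of 0 in 1 or more alternatives.

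The counts by role, here and below, are small. They stand against 24.5% higher and 24.3% lower of all tested genes, or 26.4% and 27% without siCtrl 1. Among the 5 members that control SREBP, 1 was higher, 2 were lower and 2 did not pass, or 1, 3 and 1 without siCtrl 1. INSIG1, an anchor of SCAP, was at 60.7, 68.5 and 60.6 CPM in siCtrl and at 99.7, 103 and 103 CPM after knockdown. All siDDX17 libraries lay above all siCtrl libraries, and the log2 fold change was 0.69 (SE 0.0616, adjusted p = 1.08e-06), a rise of 61.4%. This was the largest log2 increase among the 32 members under TMM scaling of all 6 libraries. Without siCtrl 3, PMVK (0.661) stood beside INSIG1 (0.658). INSIG2, the second anchor, was at 19.1, 20.9 and 26.3 CPM in siCtrl and at 19.8, 18.8 and 18.5 CPM in siDDX17. Its groups overlapped, with siCtrl 3 the highest library, and the log2 fold change of -0.22 (SE 0.103) did not pass (adjusted p = 0.0977). It rested on single controls, at -0.33 without siCtrl 1, where it was called (adjusted p = 0.00108), and at -0.07 without siCtrl 3 (adjusted p = 0.518).

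SREBF1, which encodes the SREBP that favours fatty acid genes, fell from 93.6, 89.3 and 90.0 CPM to 76.0, 77.0 and 72.8 CPM. The groups did not overlap and the log2 fold change was -0.27 (SE 0.0544, adjusted p = 0.00101). SREBF2, whose product favours cholesterol genes, was at 152, 153 and 159.7 CPM in siCtrl and at 140.3, 153 and 144 CPM in siDDX17. One siDDX17 library lay within the range of the controls, and its log2 fold change of -0.09 (SE 0.0565, adjusted p = 0.222) turned to 0.04 with scaling by totals. SCAP, the escort, was lower by a narrow margin, at 43.6, 43.5 and 46.5 CPM in siCtrl and 39.4, 41.7 and 38.5 CPM in siDDX17 (log2 fold change -0.16, SE 0.0612, adjusted p = 0.0448). It passed in only 3 of 14 alternatives and lost the call without any 1 library other than siCtrl 1 or siDDX17 2. The exons of SREBF1 share 556 bases with RAI1 on the other strand. Whether the counting used strand is not given in the sources used here, so reads of such pairs may not have been told apart, although the library kit itself marked the strand.

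The mevalonate pathway builds isoprenoid units from acetyl-CoA, and its 7 members held both directions, with 2 higher, 2 lower and 3 that did not pass, or 3, 2 and 2 without siCtrl 1. HMGCS1 is the cytosolic synthase that joins acetyl-CoA to acetoacetyl-CoA and a classic SREBP target. It showed the largest change of any member with all 6 libraries. The controls held 294, 255 and 222 CPM and the siDDX17 libraries 125, 121 and 131 CPM. The lowest control lay well above the highest siDDX17 library, and the level fell by 51.1% (log2 fold change -1.03, SE 0.0856, adjusted p = 5.5e-07). It passed in all 14 alternatives, but its log2 fold change was -0.93 without siCtrl 1 and -0.91 with scaling by totals, which ended the call past 2-fold. Without siCtrl 2, ABCA1 (-1.050) stood beside HMGCS1 (-1.046).

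PMVK, the kinase that adds the second phosphate to mevalonate, rose from 33.2, 39.0 and 38.0 CPM to 55.4, 61.6 and 54.2 CPM. The groups did not overlap, and the log2 fold change was 0.64 (SE 0.0743, adjusted p = 1.22e-05). MVK, the kinase of the preceding step, was higher by a smaller amount, at 33.7, 37.7 and 32.3 CPM in siCtrl and 38.7, 42.7 and 41.0 CPM in siDDX17 (log2 fold change 0.24, SE 0.0716, adjusted p = 0.0135). MVK passed in 11 of 14 alternatives and lost the call without siCtrl 3 (adjusted p = 0.0553), siDDX17 2 (0.0689) or siDDX17 3 (0.0522). PMVK, which passed in all 14, thus differed in direction from HMGCS1, which acts upstream of it. The exons of MVK share 225 bases with MMAB on the other strand, a neighbour with a log2 fold change of 0.24, and the part of MMAB reads in the MVK value was not tested.

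IDI1, the isomerase that interconverts the isoprenoid units, was called lower although its groups overlapped. The controls held 112, 109.7 and 92.3 CPM and the siDDX17 libraries 90.9, 91.9 and 92.4 CPM, so siCtrl 3 did not stand above the siDDX17 libraries (log2 fold change -0.19, SE 0.0707, adjusted p = 0.0391). It passed in 6 of 14 alternatives and lost the call without siCtrl 2 or without any 1 of the siDDX17 libraries. MVD, the decarboxylase that makes the isoprenoid unit, was at 57.4, 52.4 and 45.1 CPM in siCtrl and at 56.3, 61.9 and 56.3 CPM in siDDX17 (log2 fold change 0.17, SE 0.0810, adjusted p = 0.0934). Without siCtrl 1 it was called at 0.25 (adjusted p = 0.000815), and without siCtrl 3 it was at 0.08. The farnesyl diphosphate synthase FDPS and the thiolase ACAT2 had log2 fold changes of 0.02 (adjusted p = 0.847) and 0.00 (adjusted p = 0.966), with overlapping groups. ACAT2 shares 454 exon bases with TCP1 on the other strand, and TCP1 had 10175 reads per library on average beside 3287 for ACAT2.

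**Figure D2:**
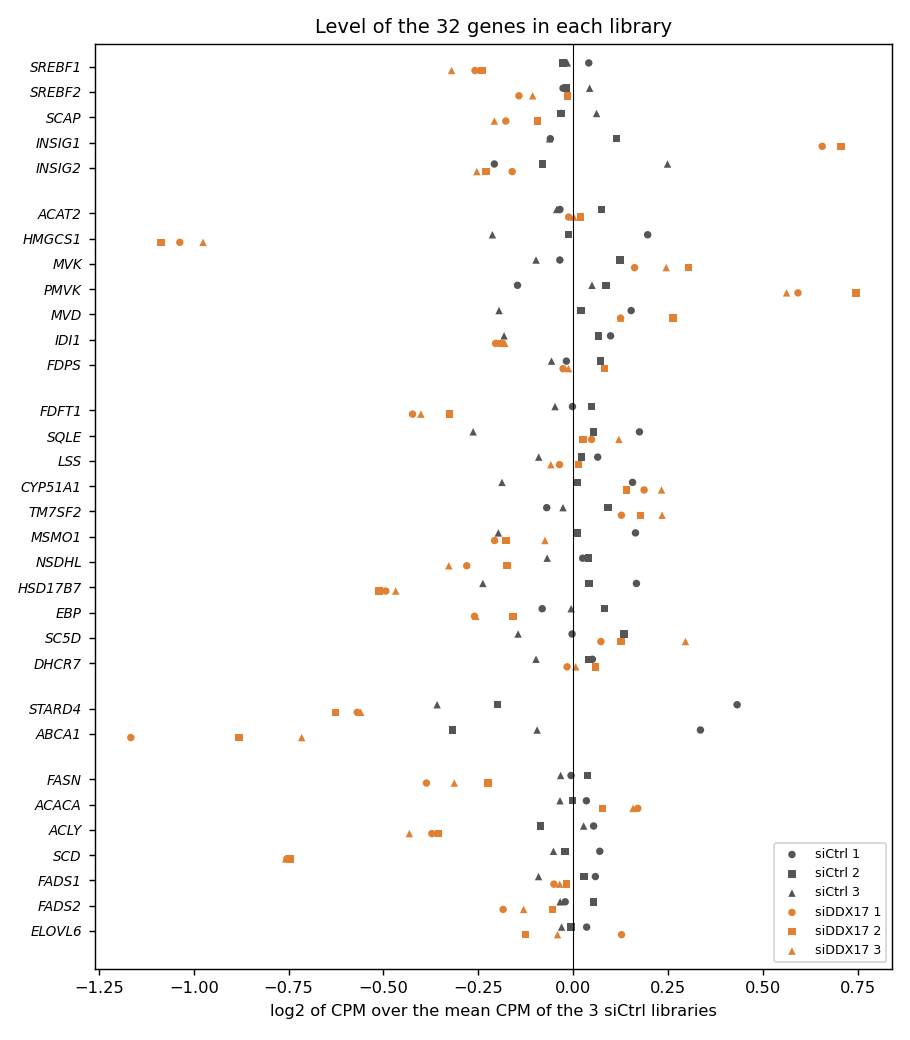
Level of each of the 32 genes in each of the 6 libraries, as log2 of CPM over the mean CPM of the 3 siCtrl libraries (0 is that mean). The siDDX17 points of HMGCS1, SCD and ABCA1 lie to the left of all siCtrl points and those of INSIG1 and PMVK to the right, and siCtrl 1 is far to the right of the other controls for STARD4 and ABCA1.

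The squalene and sterol ring steps turn farnesyl units into cholesterol, and of their 11 members 0 were higher, 4 were lower and 7 did not pass, or 2, 4 and 5 without siCtrl 1. FDFT1, squalene synthase, which commits farnesyl units to sterols, fell from 310.2, 321 and 301 CPM to 232, 248 and 235 CPM. Each siDDX17 library lay below each control, and the log2 fold change was -0.38 (SE 0.0556, adjusted p = 8.33e-05). HSD17B7, a ketosteroid reductase of the C-4 demethylation steps, was at 27.5, 25.2 and 20.8 CPM in siCtrl and at 17.4, 17.2 and 17.7 CPM in siDDX17. The groups did not overlap (log2 fold change -0.49, SE 0.0945, adjusted p = 0.00081). Its value is uncertain, since the pseudogene HSD17B7P2 had 497 reads per library on average beside 736 for HSD17B7, and how reads shared by both were counted is not given in the sources used here.

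NSDHL, the sterol dehydrogenase of the same demethylation, fell from 103, 105 and 96.9 CPM to 83.7, 90.1 and 81.0 CPM (log2 fold change -0.26, SE 0.0601, adjusted p = 0.0029). EBP, the sterol isomerase, fell from 124, 138 and 130.3 CPM to 109, 117 and 109 CPM (log2 fold change -0.22, SE 0.0602, adjusted p = 0.00744). Neither gene's groups overlapped, and each passed in 11 of 14 alternatives. MSMO1, the oxidase that opens C-4 demethylation, was at 144, 129 and 112 CPM in siCtrl and at 111, 113 and 122 CPM in siDDX17 and did not pass (log2 fold change -0.15, SE 0.0802, adjusted p = 0.137). It was at -0.07 without siCtrl 1 and was called at -0.24 without siCtrl 3 (adjusted p = 0.0117).

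The other 6 members of these steps did not pass. SQLE, squalene epoxidase, a rate-limiting enzyme of the sterol branch, was at 125, 115 and 92.2 CPM in siCtrl and at 115, 113 and 120.4 CPM in siDDX17, with a log2 fold change of 0.07 (SE 0.0891, adjusted p = 0.565), or 0.16 without siCtrl 1, where it was called (adjusted p = 0.029). LSS, which closes the sterol rings to form lanosterol, had a log2 fold change of -0.03 (adjusted p = 0.761) that turned to 0.10 with scaling by totals. DHCR7, which carries out a last reduction to cholesterol, had a log2 fold change of 0.02 (adjusted p = 0.829). CYP51A1, the lanosterol demethylase, was at 146, 132 and 115 CPM in siCtrl and at 149.6, 145 and 154 CPM in siDDX17 (log2 fold change 0.19, SE 0.0763, adjusted p = 0.0568). Without siCtrl 1 it was called at 0.26 (adjusted p = 7.36e-05), and without siCtrl 3 it was at 0.0999. TM7SF2, a sterol reductase, was the only member of this group whose siDDX17 libraries all lay above its controls, at 22.002, 22.8 and 23.7 CPM beside 19.2, 21.5 and 19.8 CPM (log2 fold change 0.18, SE 0.0733, adjusted p = 0.0551). SC5D, a sterol desaturase, had a log2 fold change of 0.17 (SE 0.0869, adjusted p = 0.121), or 0.10 without siCtrl 3 or without siDDX17 3.

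Both sterol transport members were lower, with and without siCtrl 1, beside 24.3% and 27% of all tested genes. ABCA1, the exporter of cholesterol to lipoproteins, was at 12.0, 7.66 and 8.94 CPM in siCtrl and at 4.26, 5.18 and 5.81 CPM in siDDX17. The groups did not overlap, with siCtrl 1 the highest library, and the log2 fold change was -0.91 (SE 0.161, adjusted p = 0.000397), or -0.72 without siCtrl 1 (adjusted p = 6.43e-06). On log2(FPKM + 1) it was -0.29, since this gene was at or below 1 FPKM in every library and the pseudocount shrinks such changes. STARD4, a carrier of cholesterol between membranes and an SREBP target, was at 35.3, 22.8 and 20.4 CPM in siCtrl and at 17.6, 16.95 and 17.8 CPM in siDDX17. Its log2 fold change of -0.58 (SE 0.154, adjusted p = 0.00656) rested in large part on siCtrl 1 and was -0.31 without that library (adjusted p = 0.000838). Among the controls, siCtrl 1 was the highest library for 17 of the 32 members and for 39.8% of all tested genes.

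Among the 7 fatty acid members, 0 were higher, 3 were lower and 4 did not pass, or 1, 4 and 2 without siCtrl 1. SCD, the desaturase that makes oleic acid, fell from 1588, 1490.5 and 1459 CPM to 896, 901 and 894 CPM. The siDDX17 libraries lay close together and far below the controls, a fall of 40.7% (log2 fold change -0.75, SE 0.0566, adjusted p = 2.35e-07). ACLY, which makes cytosolic acetyl-CoA from citrate, fell from 803, 729 and 789 CPM to 598, 605 and 574 CPM (log2 fold change -0.39, SE 0.0581, adjusted p = 0.000112). FASN, fatty acid synthase, fell from 390.1, 402 and 383 CPM to 299.5, 335 and 315 CPM (log2 fold change -0.31, SE 0.0583, adjusted p = 0.000719). These 3 genes had no overlap between groups and passed in all 14 alternatives.

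ACACA, the acetyl-CoA carboxylase that supplies FASN, had a value on the other side of 0. The controls held 94.3, 91.9 and 89.8 CPM and the siDDX17 libraries 104, 97.1 and 103 CPM, and its log2 fold change of 0.14 (SE 0.0547) did not pass (adjusted p = 0.0544), although it was called without siCtrl 1 (0.14, adjusted p = 0.0189) and without siDDX17 2 (0.16, adjusted p = 0.0488). FADS2, the first desaturase of polyunsaturated fatty acids, was at 473, 498 and 468 CPM in siCtrl and at 422, 462 and 438 CPM in siDDX17 (log2 fold change -0.12, SE 0.0573, adjusted p = 0.0951), and its sign turned with scaling by totals (0.00), whereas without siCtrl 1 it was called lower (-0.14, adjusted p = 0.011). FADS1, the later desaturase, and the elongase ELOVL6 had log2 fold changes of -0.03 (adjusted p = 0.644) and -0.01 (adjusted p = 0.93), which turned to 0.09 and 0.11 with scaling by totals. FADS1 and FADS2 share 490 exon bases on opposite strands, and FADS2 shares 49 bases on the same strand with FEN1, which had a log2 fold change of -0.66.

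Levels were compared between members on the FPKM scale, which corrects for gene length. In siCtrl, SCD stood highest, at 258 ± 16.2 FPKM (SD, n = 3), followed by ACLY at 162 ± 11.7 and FDPS at 133 ± 4.42. FADS2 came next at 88.2 ± 1.70, then DHCR7 at 71.0 ± 4.37, and EBP at 67.4 ± 2.31, FDFT1 at 67.4 ± 1.84 and HMGCS1 at 66.8 ± 10.4 FPKM. The SD ranges of DHCR7, EBP, FDFT1 and HMGCS1 overlapped, and whether these neighbours differed within the same libraries was not tested. At the low end were LSS at 6.74 ± 0.438, ELOVL6 at 5.51 ± 0.226, STARD4 at 4.34 ± 1.41 and ABCA1 at 0.780 ± 0.200 FPKM, of which ELOVL6 and STARD4 overlapped.

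In siDDX17, SCD was at 168 ± 1.35 FPKM, FDPS at 147 ± 4.71 and ACLY at 135 ± 2.32, so FDPS and ACLY had exchanged places. HMGCS1 was at 35.7 ± 1.79 FPKM, within the SD of FASN at 37.0 ± 1.85 FPKM. The FPKM of the 7 fatty acid members summed to 602.9 in siCtrl and 485.7 in siDDX17, and that of the 2 transport members to 5.12 and 3.61. The sums of the other groups were 80.8 and 93.5 for SREBP control, 332 and 343 for the mevalonate pathway and 408 and 411 for the ring steps. Such sums can rest on single genes. SCD, a fatty acid member, went from 258 to 168 FPKM, and INSIG1, of SREBP control, from 18.8 to 33.2 FPKM. FPKM had not been scaled by TMM, and for the 5 members whose sign turned with scaling by totals the mean FPKM was higher in siDDX17.

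**Figure D3:**
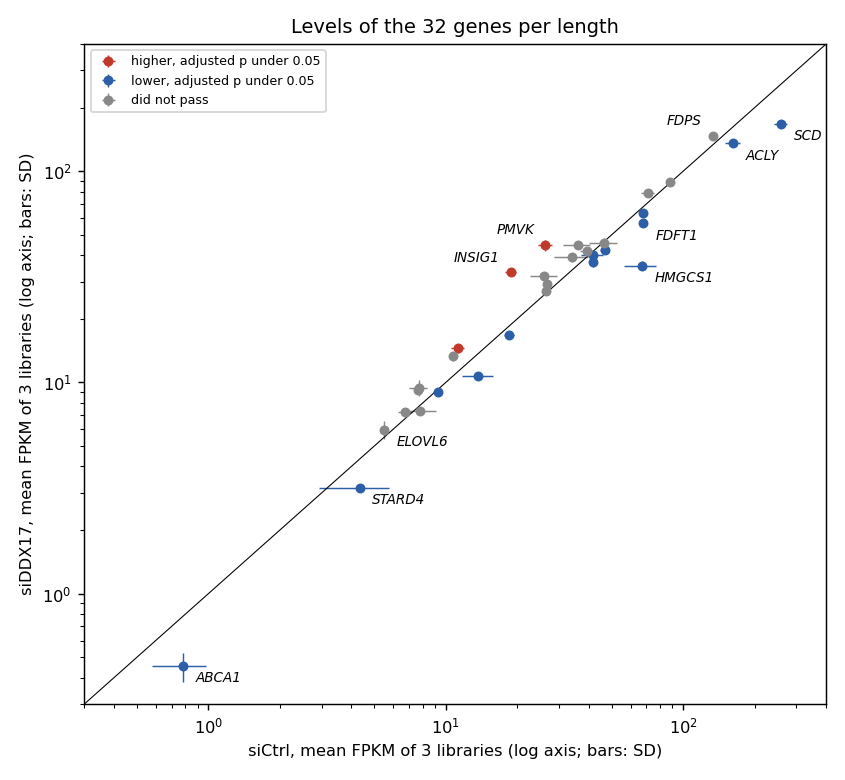
Mean FPKM of each of the 32 genes in siCtrl (horizontal, log axis) and siDDX17 (vertical, log axis), with bars as SD of 3 libraries and a diagonal line of equal level. The genes run from ABCA1 at 0.780 to SCD at 258 FPKM in siCtrl, with SCD and HMGCS1 below the line and INSIG1 and PMVK above it.

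Scaling by library totals alone raised the median log2 fold change of all tested genes by 0.12 relative to TMM scaling, and every member moved upward by about as much. With that scaling, HMGCS1 at -0.91, ABCA1 at -0.79 and SCD at -0.63 still stood lowest and INSIG1 at 0.81 and PMVK at 0.76 highest. The members that passed the test in every one of the 14 alternatives were INSIG1 and PMVK, which were higher, and SREBF1, HMGCS1, FDFT1, HSD17B7, ABCA1, FASN, ACLY and SCD, which were lower. SCAP, MVK, IDI1, NSDHL, EBP and STARD4 lost the call in 1 or more alternatives. SREBF2, LSS, FADS1 and ELOVL6 passed in 0 of the 14 alternatives, and the other 12 members that did not pass did so in 1 or more.

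**Figure D4:**
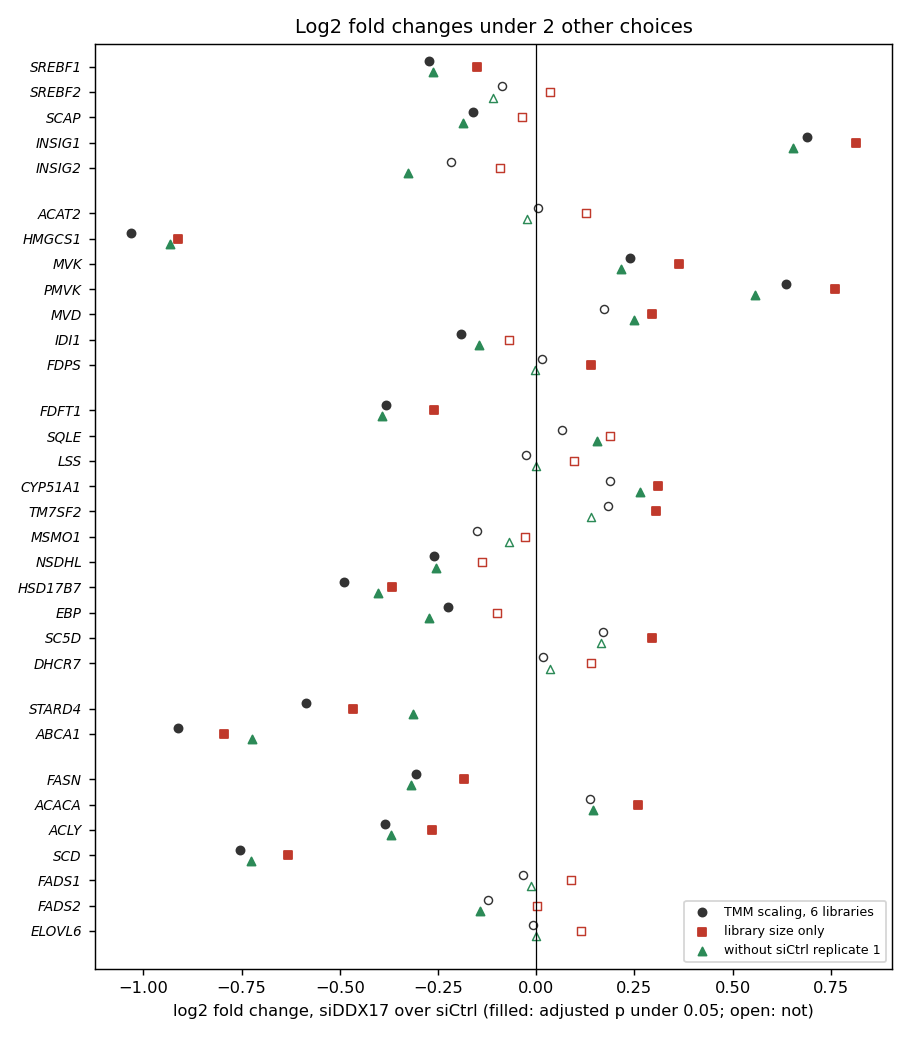
Log2 fold change of siDDX17 over siCtrl for the 32 genes with TMM scaling of 6 libraries, with scaling by library totals alone, and without siCtrl replicate 1 (filled symbols: adjusted p under 0.05, open symbols: not). Scaling by totals shifts the symbols to the right, which takes SREBF2, LSS, FADS1, FADS2 and ELOVL6 across 0, and leaving out siCtrl replicate 1 brings STARD4 from -0.58 to -0.31.

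Since siRNAs can also act on transcripts that pair with bases 2 to 8 of a strand, the 3′ UTRs of the members were searched for such 7-base matches. TATTGCT, which pairs with the antisense strand of the siRNA against DDX17, was found in 4 of the 32 members (12.5%) and in 14.5% of 12987 genes with a 3′ UTR. Over those 12987 genes, the median log2 fold change was -0.027 with the match and -7.14e-05 without it. The members with a match are shown because ABCA1 and SCD are among the 3 members with the largest decreases. Capitals mark the match within the GRCh38 sequence of the transcript strand, at chr9:104781375-104781381 for ABCA1, chr10:100361178-100361184 for SCD, chr11:61801039-61801045 for FADS1 and chr11:121312101-121312107 for SC5D.
ABCA1: tactgtagaaaTATTGCTctaattctttt
SCD: ccttttcacttTATTGCTatcgccctcct
FADS1: tttgtgatttcTATTGCTgtagctaggta
SC5D: gtgtgtttttaTATTGCTaaaaccataag

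ABCA1 and SCD were called lower, while FADS1 (log2 fold change -0.03) and SC5D (0.17) did not pass. The matches to the sense strand of the DDX17 siRNA (ATGGGTG, in 10.5% of genes) and to both strands of the control siRNA (TGTCACG, in 3.07%, and TCGGAGA, in 2.13%) were found in 0 of the 32 members. Over the 12987 genes, the median log2 fold changes with and without ATGGGTG were -0.005 and -0.004. They were 0.029 and -0.005 for TGTCACG and 0.230 and -0.009 for TCGGAGA. HMGCS1, the member that fell most with all 6 libraries, held 0 of these matches. Whether either siRNA acted on any transcript with a match was not tested.

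Neighbouring parts of sterol and fatty acid metabolism were described through 5 lists of 61 other genes, of which 57 were tested, 12 were higher (21.1%), 13 were lower (22.8%) and 32 did not pass. These shares were near those of all tested genes, 24.5% higher and 24.3% lower, so nothing particular to the lists was seen in them. The counts of single lists below are small and stand against the same 24.5% and 24.3%. Among 10 genes that process SREBP or degrade sterol-regulated proteins, 3 were higher (30%) and 1 was lower (10%). ERLIN2 and ERLIN1, partner proteins of the endoplasmic reticulum membrane that take part in the degradation of sterol-regulated proteins, rose. ERLIN2 went from 20.4, 18.9 and 19.1 CPM to 55.3, 56.0 and 55.0 CPM (log2 fold change 1.51, SE 0.0622, adjusted p = 1.46e-09), which exceeded the change of every member. ERLIN1 had a log2 fold change of 0.63 (SE 0.0543, adjusted p = 7.58e-07).

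Among 12 genes of the non-sterol branches that draw on mevalonate, 4 were higher (33.3%) and 3 were lower (25%), with PDSS2, which helps build the tail of coenzyme Q, at a log2 fold change of 0.74 (SE 0.103, adjusted p = 6.09e-05) and the farnesyltransferase subunit FNTB at -0.80 (SE 0.0885, adjusted p = 7.6e-06). Of 13 genes of lipoprotein uptake, lysosomal sterol export and esterification, 2 were higher (15.4%) and 6 were lower (46.2%). In this list NCEH1, a cholesteryl ester hydrolase, fell with a log2 fold change of -0.93 (SE 0.0937, adjusted p = 3.37e-06), and the lipoprotein receptor LRP8 with -0.68 (SE 0.0736, adjusted p = 6.41e-06). Of 5 tested genes of the list of LXR receptors, other LXR targets and oxysterol enzymes, 2 were higher (40%) and 0 were lower. They were NR1H3, an LXR receptor (log2 fold change 0.39, adjusted p = 0.00152), and LPCAT3, an LXR target (0.47, adjusted p = 3.02e-05). The other tested genes of this list, NR1H2 (-0.004), ABCG1 (-0.04) and PLTP (-0.06), did not pass. The genes of this list were named after their values were seen. Of 17 tested genes of fatty acid and triglyceride synthesis outside the members, 1 was higher (5.88%) and 3 were lower (17.6%), and ACSS2, which makes acetyl-CoA from acetate, had a log2 fold change of -0.65 (SE 0.0612, adjusted p = 1.65e-06).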

How the data were processed

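Poly(A) RNA of 6 A549 libraries (3 siCtrl, 3 siDDX17), made with a stranded kit (dUTP in the second strand), was used. The authors trimmed the reads, aligned them to GRCh38 with TopHat2, kept unique alignments and deposited raw counts per gene. They also deposited FPKM values (length and library-size normalized, rounded). The counting program, annotation and strand setting of the counting are not given in the sources used here, so values of genes that overlap or resemble another gene are uncertain. Groups and replicate numbers were taken from sample titles. The paper calls the replicates biological, but the labels do not say whether they were separate cultures, so p-values measure the spread between these libraries.

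The members and lists were chosen with earlier results of these data known. edgeR 4.0.16 in R 4.3.3 was run on the 29476 genes with TMM scaling, its expression filter (15615 kept), glmQLFit and glmQLFTest. SE is the log2 fold change divided by the square root of the F statistic. Calls used an adjusted p under 0.05. The alternatives were RLE scaling, library totals alone, no filter, at least 10 counts in every library, DESeq2 1.42.0, limma 3.58.1 on log2(FPKM + 1) and log2(FPKM + 0.1), the replicate number as a block, and each library left out. With 3 against 3 libraries an exact permutation test cannot go below 0.1, so none was run. Named genes were all members, DDX17, and the listed genes past a fold change of 1.5 (at most 3 per direction and list). Genes named for an overlap or as markers were added for that reason. The tested genes of the LXR list were named after their values were seen. Locations came from GENCODE release 44, promoters from RefSeq. The scripts were tested on simulated counts of 15439 genes, where 183 of 200 changed genes were recovered with 13 false calls.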

Additional observations from a re-analysis of the deposited data

How the results depend on the processing

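Of the 32 genes, 10 passed in all 14 alternatives, 6 lost the call in 1 or more, 12 gained it in 1 or more and 9 changed sign in 1 or more. With scaling by library totals alone, 9 were higher and 0 were lower by over 2-fold, and 33.5% of all tested genes were higher. The median log2 fold change of the 32 genes was then 0.018, beside 0.128 over all tested genes. With limma, 11 were higher, 8 were lower and 0 were lower by over 2-fold on both log2(FPKM + 1) and log2(FPKM + 0.1). These 34.4% higher and 25% lower stood against 33.3% and 15.2% of all tested genes on log2(FPKM + 1). On log2(FPKM + 0.1) all tested genes had 33.4% and 15.2%. The medians of the 32 genes were 0.023 and 0.024, beside 0.068 and 0.123 over all tested genes. With at least 10 counts in every library 6 were higher and 11 lower, against 26.1% and 25% of all tested genes. With the limits of the methods 3 were lower, against 8.03% of all tested genes. The cause of these differences was not tested beyond the shift of 0.12 that scaling by totals gave all tested genes. Leaving out each library in turn gave 2 to 7 higher, 11 to 15 lower and 0 to 2 lower by over 2-fold. Of all tested genes, 20.1% to 26.4% were then higher and 19.6% to 27% lower. With RLE scaling 3 were higher and 13 lower, against 23.9% and 24.9% of all tested genes.

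Signs that turned were all of genes that did not pass. ACAT2 was at -0.0039 with RLE scaling and -0.0037 with DESeq2. With scaling by totals, limma on log2(FPKM + 1) and limma on log2(FPKM + 0.1) in this order, SREBF2 was at 0.035, 0.040 and 0.041, LSS at 0.096, 0.090 and 0.102, FADS1 at 0.088, 0.093 and 0.095, FADS2 at 0.0011, 0.0062 and 0.0063, and ELOVL6 at 0.114, 0.099 and 0.113. ELOVL6 was at 0.0039 with at least 10 counts in every library. Over the libraries left out, ACAT2 lay between -0.023 and 0.033, FDPS between -0.020 and 0.044, SQLE between -0.052 and 0.156, DHCR7 between -0.031 and 0.034 and ELOVL6 between -0.083 and 0.045. In none of the listed alternatives did a called gene change sign.

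With the replicate block, 3 members were higher and 12 were lower, against 24% and 23.9% of all tested genes. SCAP was the call lost. Libraries with the same number correlated at 0.00698, 0.0407 and -0.0564 in their deviations from the group means. Not every library correlated best with its own number. With deviations from means of 3 libraries, and siCtrl 1 apart from the other controls, these values cannot decide whether same-number libraries were handled together. The common biological coefficient of variation was 0.0754 with all 6 libraries and 0.0472 without siCtrl 1. ABCA1 was the shallowest member, with 164 to 408 reads per library, whereas the other members had at least 598 reads in every library.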
